A study of Mus musculus with 9 samples.

Results

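The 9 genes described here encode sphingolipid enzymes and receptors for sphingosine-1-phosphate (S1P), out of 35934 annotated genes with a value in RNA sequencing of mouse uterus. They were chosen by name for their place in the pathway: the sphingomyelinase Smpd1, the ceramidase Asah1, the sphingosine kinases Sphk1 and Sphk2, the S1P phosphatase Sgpp1, the S1P lyase Sgpl1 and the receptors S1pr1, S1pr2 and S1pr3. The measured values that entered this choice were the FPKM of Smpd1 in uteri given arrested-embryo against competent-embryo medium. They were known when the list was drawn up. Differences of the members between those groups are therefore given as descriptions, and no test of them is read as support. Genes outside the list were tested in that contrast. Each gene's level was taken as the summed FPKM of its annotated transcripts, a measure of RNA abundance scaled to transcript length and to library size.

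The study asked how the uterus responds to what human embryos release into culture medium. There were 3 libraries per group, 9 in all. In the arrested group, uterine horns received pooled medium conditioned by 18 arresting human embryos. In the competent group, they received pooled medium conditioned by 9 competent human embryos, and in the control group unconditioned embryo culture medium. All groups were immature C57BL/6 females, primed with progesterone (1 mg) and β-estradiol (10 mg/kg per day) over 3 days, and each injection had a volume of 50 µl. The labels give their age as 25 days and the design text as 21 days. Each conditioned medium was 1 pool, so the libraries of a group do not sample different embryos. The sources used here do not say that each library came from a different mouse, and p-values therefore measure the spread between these libraries, which may be technical. Below, arrested, competent and control uteri stand for the libraries of a group and not for a count of animals, and n counts libraries.

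Sphingomyelin of cell membranes is cut to ceramide by sphingomyelinases, ceramidases release sphingosine from ceramide, and sphingosine kinases turn sphingosine into S1P. S1P is either returned to sphingosine by phosphatases or broken down for good by the lyase, and outside the cell it acts through G protein-coupled receptors. In the rodent uterus this pathway is known for its part in decidualization and in the growth of blood vessels around the implantation site.

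The libraries were of whole uterus, and in such bulk RNA fewer cells of a type and less RNA per cell cannot be told apart. Read coverage over annotated transcripts amounted to 1077 to 1972 Mb per library, and 1 FPKM stood for 1.09 to 1.98 bases of mean coverage. Summed over 6 uterine genes, expression was 161 to 292 FPKM in all libraries. Among these genes, the steroid receptors Esr1 and Pgr were listed at 0 in 8 and 6 libraries when annotated transcripts were summed, but at 43.3 to 103 FPKM and 26.5 to 48.5 FPKM in all 9 once transcripts assembled by the authors were added. A gene listed at 0 can therefore be a failed estimate. The arrested libraries resembled each other less than the rest: arrested library 3 stood at 90.7 on the first principal component, against -25.1 to 4.87 for the other 8, and adipocyte markers summed to 1301 FPKM in arrested library 2 against 1.42 to 163 FPKM elsewhere. Where leaving out these libraries turned or clearly moved a member's difference, the value without them is given beside it.

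Of the 9 members, 8 reached a mean of 1 FPKM over the libraries and were tested among 13333 genes, and Sphk2 did not. In control uteri the order of the mean levels was Asah1, Sgpl1, Smpd1, Sphk1, Sgpp1, S1pr2, S1pr1 and S1pr3. Asah1 stood apart at the top, at 97.7 ± 4.06 FPKM (SD, n = 3), followed by Sgpl1 at 27.3 ± 2.74 FPKM and Smpd1 at 19.0 ± 1.37 FPKM. The next 3, Sphk1 (9.37 ± 8.82 FPKM), Sgpp1 (9.37 ± 1.51 FPKM) and S1pr2 (8.91 ± 1.31 FPKM), did not differ beyond their spread. S1pr1 (4.54 ± 0.486 FPKM) and S1pr3 (2.703 ± 1.12 FPKM) closed the order, and the ranges of this pair did not overlap. The place of Smpd1 moved with the group: by mean it stood below Sgpl1 and Sphk1 in arrested uteri, above both in competent uteri and between them in control uteri. Smpd1 and Sgpl1 overlapped in range in competent uteri, where they were at 24.7 to 30.7 and 23.5 to 27.4 FPKM, and did not overlap in arrested or control uteri.

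**Figure D1:**
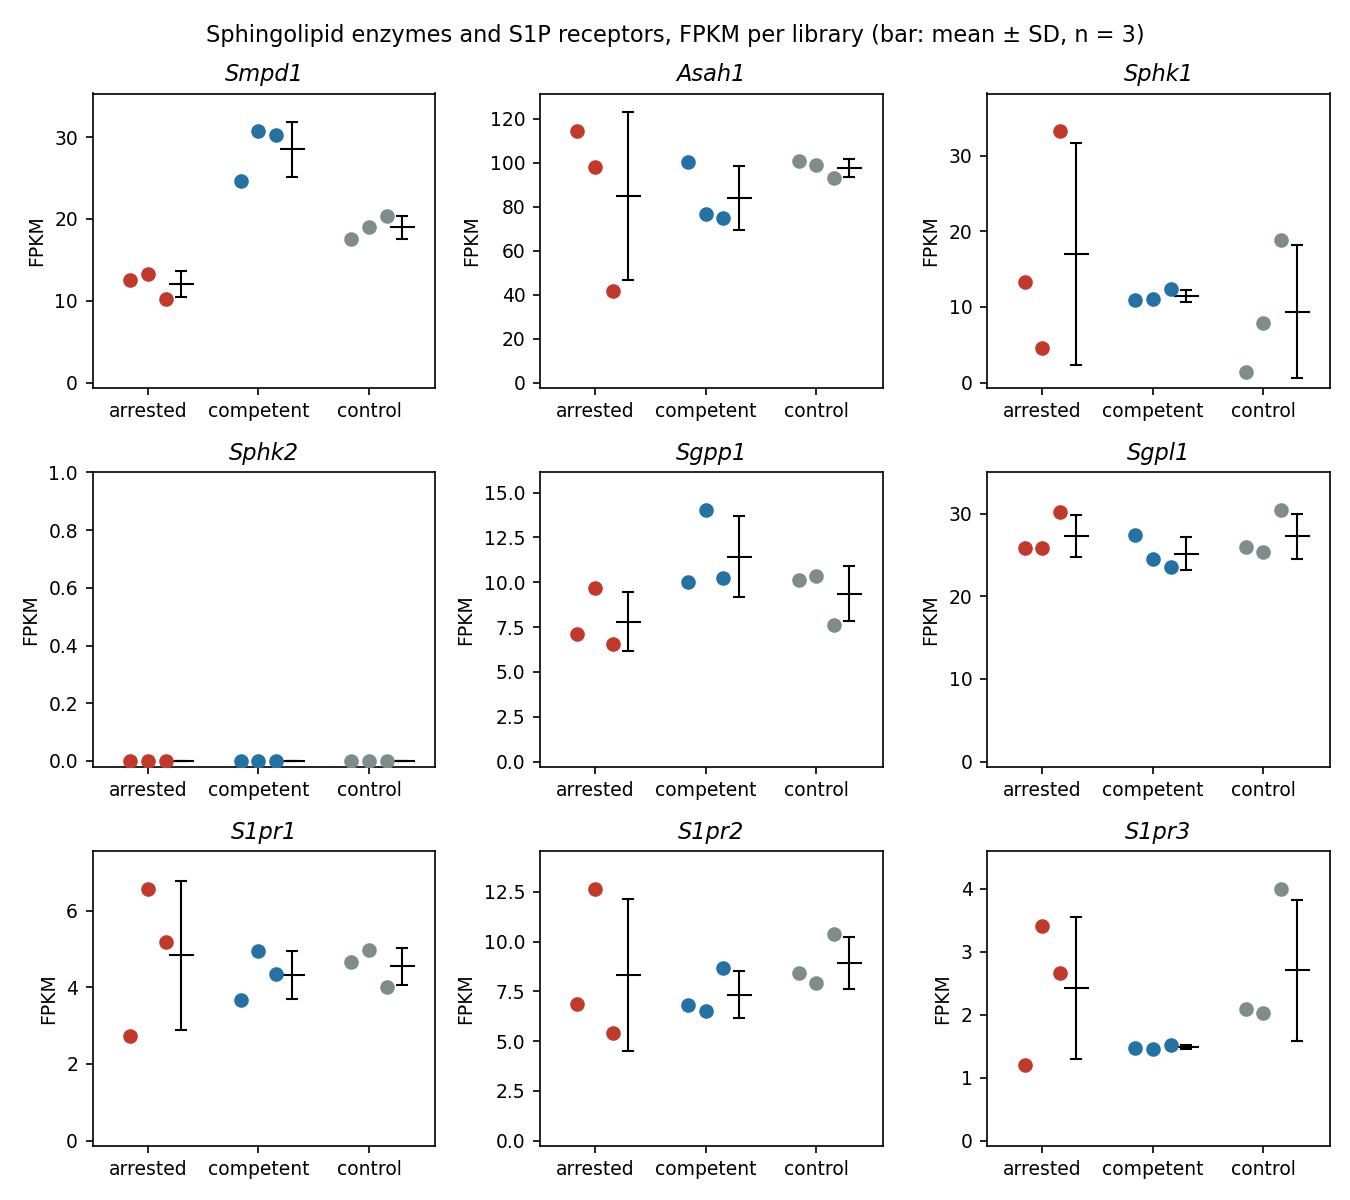
FPKM of the 9 members in each library, with arrested, competent and control groups from left to right in each panel. Points are libraries and the bar is the mean ± SD (n = 3); the 3 groups of Smpd1 do not overlap, Sphk2 is at 0 throughout, and the arrested points of Asah1, Sphk1, S1pr1 and S1pr2 are spread the most widely.

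Smpd1 encodes acid sphingomyelinase, the lysosomal and secreted enzyme that makes ceramide from sphingomyelin and whose loss causes Niemann-Pick disease. Its level was 12.5, 13.3 and 10.3 FPKM in the 3 arrested libraries, 24.7, 30.7 and 30.2 FPKM in the competent libraries and 17.6, 19.0 and 20.3 FPKM in the control libraries. Every arrested library was below every control library, and every control library below every competent one. The arrested mean was 0.421 of the competent mean, a difference of -1.18 ± 0.15 on the log2(FPKM + 1) scale (SE). Because this is the contrast that put Smpd1 in the list, it is given without a test. Of 13333 genes, 0.39% had their 3 groups apart in that order, and of the 1166 genes with arrested wholly below competent, 4.46% had all controls between. Smpd1 was chosen with its arrested and competent values known, so these shares are given for scale and nothing is read from them.

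The contrasts of Smpd1 with control each reuse arrested or competent libraries whose values entered its choice, so they are not independent of it and are given as descriptions. The arrested minus control difference was -0.62 ± 0.15, with lower values in 3 of 3 arrested libraries. Competent minus control was 0.56 ± 0.15, with higher values in 3 of 3 competent libraries. Neither passed the threshold over all genes (limma, adjusted p = 0.822 and 0.866). At an adjusted p under 0.05, 0.0525% of all genes passed in arrested minus control and 0.045% in competent minus control, so few genes of any kind did. Both contrasts use the same 3 control libraries. Leaving out arrested libraries 2 and 3 together gave -1.12 for arrested minus competent and -0.56 for arrested minus control.

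Like S1pr2 and S1pr3, Smpd1 has 1 annotated transcript, of 2411 bases (ENSMUSG00000037049, chr7:112702874-112706902 of NCBIM37, plus strand), so no division of reads among isoforms enters its value. The authors' confidence intervals, whose level is not given in the sources used here, ran from 9.16 to 14.6 FPKM over the arrested libraries, from 23.2 to 32.5 FPKM over the competent ones and from 15.9 to 21.96 FPKM over the controls. The intervals of the 3 groups did not overlap either. Its nearest neighbour, Apbb1, lies on the opposite strand with its annotated 3′ end 98 bases beyond the end of Smpd1, and was listed at 0 in all 9 libraries.

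The 250 bases before the start of Smpd1 and of Sgpp1 are shown because these members were the ones whose arrested libraries all lay below the competent ones. They are RefSeq sequences of GRCm38.p6, at chr7:105554110-105554359 on the plus strand and chr12:75735730-75735979 on the minus strand, and capitals mark matches to GGGCGG (the GC box, bound by Sp1) or AGGTCA (a nuclear receptor site) on either strand.
Smpd1: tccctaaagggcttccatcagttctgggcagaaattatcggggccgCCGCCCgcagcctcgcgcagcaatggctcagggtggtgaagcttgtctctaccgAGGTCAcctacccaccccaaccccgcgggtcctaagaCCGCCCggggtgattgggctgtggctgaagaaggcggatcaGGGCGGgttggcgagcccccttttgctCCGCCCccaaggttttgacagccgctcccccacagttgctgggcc
Sgpp1: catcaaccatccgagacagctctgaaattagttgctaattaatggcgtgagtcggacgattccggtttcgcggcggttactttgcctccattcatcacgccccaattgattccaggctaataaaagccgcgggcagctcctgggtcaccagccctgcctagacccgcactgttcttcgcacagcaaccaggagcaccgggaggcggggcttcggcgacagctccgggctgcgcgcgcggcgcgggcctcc
The Smpd1 window held 4 GC boxes and 1 AGGTCA, and the Sgpp1 window had no match to either. Among 32851 promoter windows of this length, 32.7% held a GC box and 14.02% an AGGTCA. Neither window held the E-box CACGTG, present in 6.02% of windows. Sequences were found for 7 of the 9 members (12 windows), and Asah1 and S1pr1 had none. Of the 12 windows, 5 held a GC box, 4 an AGGTCA and 2 the E-box. The window of Sgpl1, whose groups all overlapped in level, held 3 GC boxes, and that of S1pr2 an AGGTCA. These matches were thus not particular to Smpd1.

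Asah1 encodes acid ceramidase, the lysosomal enzyme that follows acid sphingomyelinase and frees sphingosine from ceramide. Its summed level was 114, 98.3 and 41.8 FPKM in arrested uteri, 101, 76.7 and 74.7 FPKM in competent uteri and 101, 98.9 and 93.1 FPKM in control uteri. All 3 groups overlapped, and arrested library 3 was the lowest of the 9. Arrested minus control was -0.32 ± 0.34 and competent minus control -0.23 ± 0.34 (limma, adjusted p = 0.916 and 0.983). Arrested minus competent was -0.095 ± 0.34. Without arrested library 3, arrested minus control was 0.12 and arrested minus competent 0.35. Without arrested libraries 2 and 3 they were 0.23 and 0.45.

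The low sums of Asah1 coincided with a transcript listed at 0. A transcript of 764 bases, ENSMUST00000110417, was at 46.3 and 41.6 FPKM in arrested libraries 1 and 2, at 39.4 FPKM in competent library 1 and at 38.2 to 40.02 FPKM in the controls. It was listed at 0 in arrested library 3 and in competent libraries 2 and 3. The full-length transcript of 2773 bases, ENSMUST00000034000, was above 0 in every library, at 68.1, 56.7 and 41.8 FPKM in arrested uteri, 61.2, 76.7 and 74.7 FPKM in competent uteri and 60.9, 60.7 and 54.0 FPKM in control uteri. On this transcript alone the sign of competent minus control turned, to 0.27, and every competent library was above every control library, competent library 1 (61.2 FPKM) by little. The direction for Asah1 thus changed with how the transcripts were counted. On summed values, competent and control did not overlap for 14.9% of all genes. No such share was counted for single transcripts, so nothing is read from this separation.

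**Figure D2:**
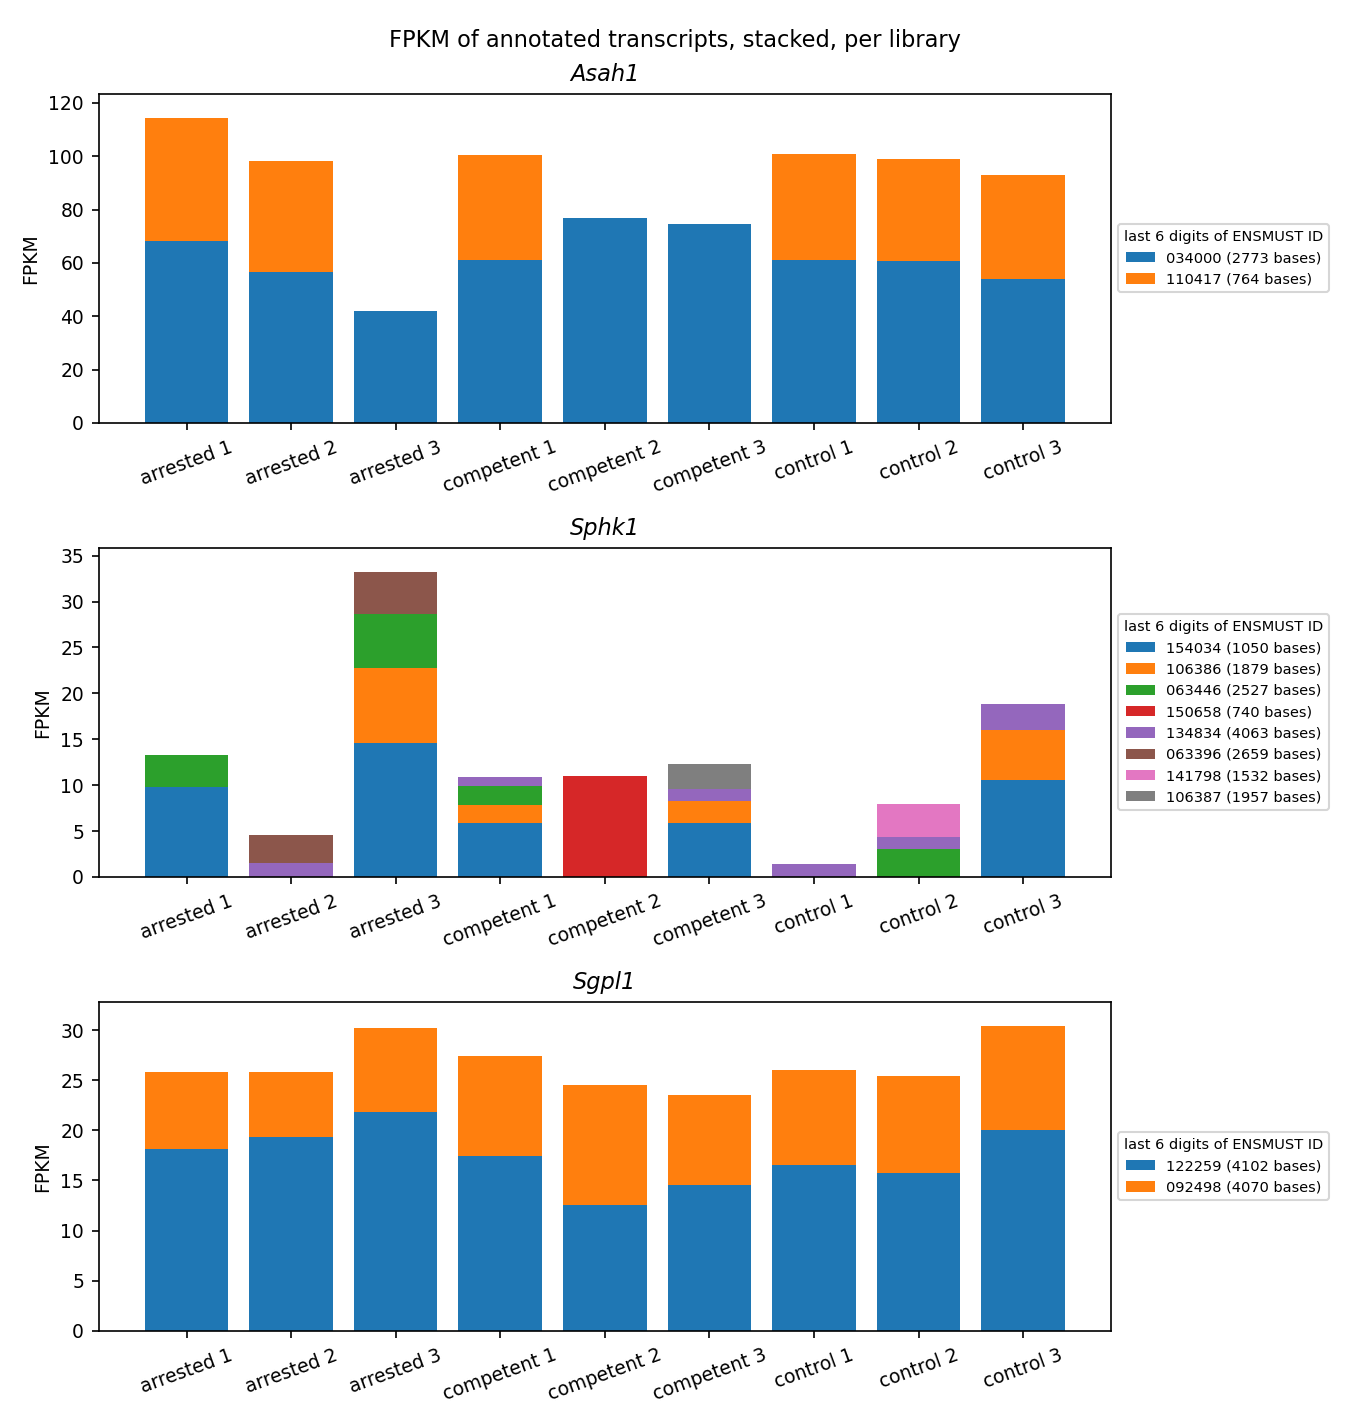
FPKM of the annotated transcripts of Asah1, Sphk1 and Sgpl1, stacked for each library, with arrested, competent and control libraries from left to right. The 764-base transcript of Asah1 is missing from arrested library 3 and competent libraries 2 and 3, the leading transcript of Sphk1 changes from library to library, and the split of Sgpl1 is more uneven in the arrested libraries.

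Sphk1, the inducible cytosolic kinase that makes S1P, varied widely between libraries. It was at 13.3, 4.60 and 33.2 FPKM in arrested uteri, 10.9, 11.04 and 12.3 FPKM in competent uteri and 1.36, 7.95 and 18.8 FPKM in control uteri. The arrested and control libraries each spanned the whole competent range. Competent minus control was 0.73 ± 0.83 and arrested minus control 0.90 ± 0.83 (limma, adjusted p = 0.963 and 0.914), and arrested minus competent was 0.17 ± 0.83. Each of these differences was close to its SE or below it, and single libraries decided their size. Without arrested library 3, arrested minus control was 0.26 and arrested minus competent -0.47. Without arrested library 2 they were 1.56 and 0.83. Without control library 1, arrested minus control was 0.071 and competent minus control -0.10, and without control library 3 they were 1.61 and 1.43.

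The transcript of Sphk1 that was credited with reads differed among libraries. The gene has 17 annotated transcripts, of which 8 were above 0 in some library and 0 in all libraries. The leading one was ENSMUST00000154034, a coding transcript of 1050 bases, in arrested libraries 1 and 3, competent libraries 1 and 3 and control library 3. In competent library 2 the whole value of 11.04 FPKM came from a processed transcript, ENSMUST00000150658, and in control library 1 the whole value of 1.36 FPKM came from a retained intron. Adding the transcripts that the authors assembled at the locus gave 15.8, 8.61 and 35.6 FPKM in arrested uteri, 12.7, 21.3 and 15.2 FPKM in competent uteri and 7.20, 7.95 and 22.3 FPKM in control uteri. Arrested library 3 stayed the highest of the 9 with these included. With mean coverage over the union of exons in place of FPKM, competent minus control turned to -0.051.

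Sphk2, the second sphingosine kinase, which is found mainly in the nucleus and mitochondria, was listed at 0 in all 9 libraries for each of its 3 annotated transcripts (chr7:52964837-52973372 of NCBIM37, minus strand). No transcript assembled by the authors shared a splice junction with it in any library. Genes on the opposite strand overlap it at both ends. Rpl18, a ribosomal protein gene, overlaps 2546 bases and was at 1732 to 2672 FPKM. Dbp, a transcription factor gene of the circadian clock, overlaps 689 bases and was listed at 0 in 8 libraries and at 94.9 FPKM in arrested library 2. Of 22245 protein-coding genes, 4710 were listed at 0 in all libraries. The Sphk2 transcript ENSMUST00000072836 (52965655 to 52970577) overlaps neither neighbour and was also listed at 0 in every library. A level of Sphk2 could not be obtained from these values. A listed 0 does not show that the gene was silent, and the cause of the zeros was not tested.

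**Figure D3:**
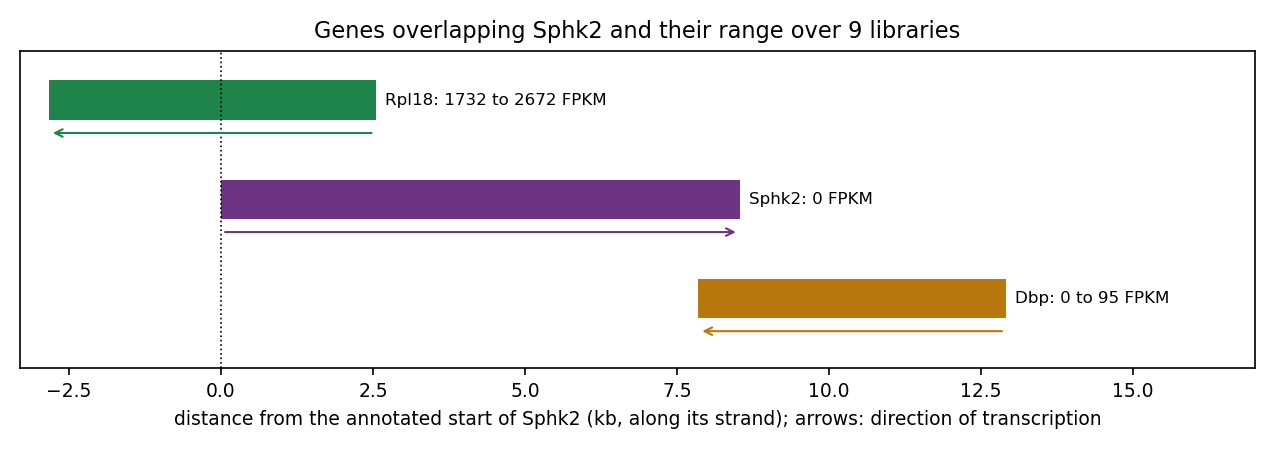
Sphk2 and the genes that overlap it, drawn by distance in kb from the annotated start of Sphk2, with arrows for the direction of transcription and the range of FPKM over the 9 libraries. Rpl18, at 1732 to 2672 FPKM, covers the first 2546 bases of Sphk2, and Dbp covers its last bases.

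Sgpp1, the phosphatase of the endoplasmic reticulum that returns S1P to sphingosine, was at 7.14, 9.70 and 6.58 FPKM in arrested uteri, 10.0, 14.02 and 10.3 FPKM in competent uteri and 10.1, 10.3 and 7.63 FPKM in control uteri. All arrested libraries were below all competent ones, and the controls overlapped with both. Arrested minus competent was -0.50 ± 0.21, given without a test, and 8.75% of all genes had arrested wholly below competent. Against control, arrested uteri differed by -0.24 ± 0.21 and competent uteri by 0.26 ± 0.21 (limma, adjusted p = 0.914 and 0.955). Like Smpd1, Sgpp1 had its lowest mean in arrested and its highest in competent uteri, and over the 9 libraries its level went with that of Smpd1 at a Pearson r of 0.76, the highest among the 28 pairs of members. Both of its annotated transcripts were above 0 in every library.

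Sgpl1, the lyase that ends the pathway by splitting S1P, was the steadiest member. It was at 25.8, 25.8 and 30.3 FPKM in arrested uteri, 27.4, 24.5 and 23.5 FPKM in competent uteri and 26.0, 25.4 and 30.4 FPKM in control uteri. All 3 groups overlapped. For Sgpl1, arrested minus control was 0.0030 ± 0.13 and competent minus control -0.11 ± 0.13 (limma, adjusted p = 1.0 and 0.963), and arrested minus competent was 0.11 ± 0.13. Without arrested library 3, arrested minus control was -0.070 and arrested minus competent 0.041, and likewise without arrested libraries 2 and 3.

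The 2 transcripts that made up the Sgpl1 value did not share this steadiness. ENSMUST00000122259, of 4102 bases, held 70.1, 75.0 and 72.2% of the Sgpl1 FPKM in arrested uteri, 63.9, 51.3 and 62.0% in competent uteri and 63.8, 62.1 and 66.0% in control uteri. Its share was higher in every arrested library than in any other library, at 72.5 ± 2.44% against 59.0 ± 6.76% in competent and 64.0 ± 1.95% in control uteri (SD, n = 3). The other transcript, ENSMUST00000092498, differs by 32 bases in length. Of 669 genes with exactly 2 transcripts above 0 in all libraries, 2.24% had the arrested share apart from both other groups, and 10% had it apart from competent uteri. This pattern was picked out after its values were seen, and how surely FPKM divides reads between transcripts of such like length was not tested.

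**Figure D4:**
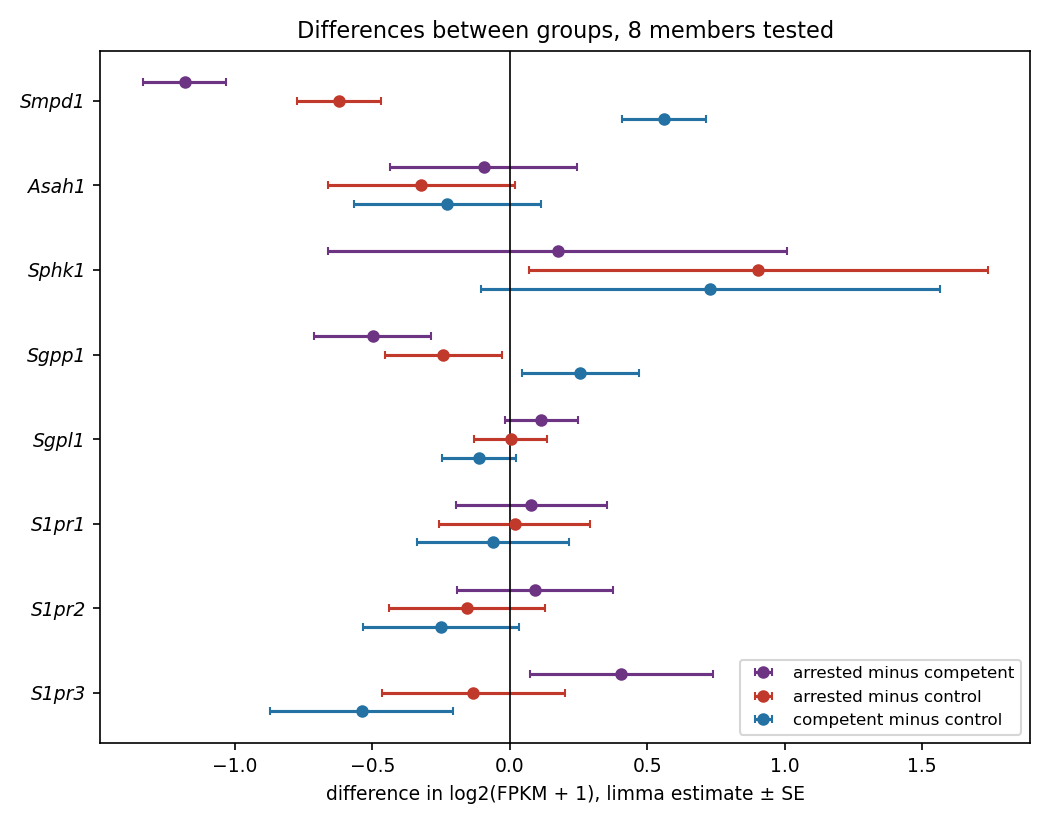
Differences in log2(FPKM + 1) between groups for the 8 members tested, as the limma estimate ± SE from 1 fit of 9 libraries, with points left of 0 where the first-named group was lower. Smpd1 has arrested minus competent at -1.18, arrested minus control at -0.62 and competent minus control at 0.56, while those of Sgpl1 lie between -0.11 and 0.11.

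S1pr1 is the receptor of endothelial cells and lymphocytes that couples to Gi and keeps vessels tight. It was at 2.74, 6.56 and 5.19 FPKM in arrested uteri, 3.68, 4.95 and 4.34 FPKM in competent uteri and 4.65, 4.97 and 4.01 FPKM in control uteri. The arrested libraries held both the lowest and the highest value of the 9, around the range of the other groups. For S1pr1, arrested minus control was 0.017 ± 0.28 and competent minus control -0.062 ± 0.28 (limma, adjusted p = 1.0 for both), and arrested minus competent was 0.079 ± 0.28. Without arrested library 2, arrested minus control was -0.20 and arrested minus competent -0.14. Without arrested library 3 they were -0.056 and 0.0055. Without arrested libraries 2 and 3 they were -0.56 and -0.50, and without arrested library 1 they were 0.31 and 0.37.

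S1pr2, which couples to G12/13 and Gq as well as Gi and is found in smooth muscle and, in rodents, in the decidua, had the highest level of the receptors. It was at 6.88, 12.6 and 5.43 FPKM in arrested uteri, 6.84, 6.50 and 8.68 FPKM in competent uteri and 8.43, 7.91 and 10.4 FPKM in control uteri. Arrested library 2 was above all others and arrested library 3 below all others. The arrested minus control difference was -0.16 ± 0.28 and competent minus control -0.25 ± 0.28 (limma, adjusted p = 0.967 and 0.963). Arrested minus competent was 0.092 ± 0.28. Without arrested library 2, arrested minus control was -0.47 and arrested minus competent -0.22, and without arrested library 3 they were 0.073 and 0.32. Without arrested libraries 2 and 3 they were -0.32 and -0.074.

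S1pr3, a receptor of vascular smooth muscle and endothelium with the same G protein partners, was at 1.20, 3.41 and 2.66 FPKM in arrested uteri, 1.47, 1.45 and 1.52 FPKM in competent uteri and 2.09, 2.03 and 3.99 FPKM in control uteri. Every competent library was below every control library, while the arrested libraries overlapped with both. Competent minus control was -0.54 ± 0.33 (limma, adjusted p = 0.954, unadjusted p = 0.144), and 8.13% of all genes had competent wholly below control. Without control library 3 it was -0.30. For arrested minus control it was -0.13 ± 0.33 (adjusted p = 0.987), and for arrested minus competent 0.41 ± 0.33. Without arrested libraries 2 and 3 these were -0.71 and -0.17, without arrested library 1 they were 0.16 and 0.70, and without control library 3 arrested minus control was 0.10. At these levels the authors' interval for S1pr3 ran from 1.21 to 1.83 FPKM in competent library 3 and from 1.64 to 2.54 FPKM in control library 1, so these 2 libraries were not separated by it.

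Summed, the 3 receptors came to 10.8 to 22.6 FPKM in arrested uteri, 11.99 to 14.5 FPKM in competent uteri and 14.9 to 18.4 FPKM in control uteri. S1pr2 made up the largest share in every library. It held 40.9 to 63.6% of the sum in arrested uteri, 50.4 to 59.7% in competent uteri and 53.1 to 56.5% in control uteri. In arrested library 3 it was barely ahead of S1pr1, at 40.9% against 39.1%. The other S1P receptors were low: S1pr4, of lymphoid cells, averaged 0.745, 0.613 and 1.35 FPKM in arrested, competent and control uteri, and S1pr5 averaged 0.0601, 0.0335 and 0.0106 FPKM.

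Sums of markers of the cells known to carry these receptors are given beside them. The sum of 8 endothelial markers was 42.6, 110 and 93.3 FPKM in arrested uteri, 57.0 to 73.8 FPKM in competent uteri and 70.4 to 75.0 FPKM in control uteri, and its lowest and highest libraries were those of S1pr1. The sum of 8 smooth muscle markers was 879, 2163 and 1211 FPKM in arrested uteri, 1414 to 2770 FPKM in competent uteri and 1614 to 1712 FPKM in control uteri. Its order over the libraries matched those of S1pr2 and S1pr3 only in part. The sum was highest in competent library 2, at 2770 FPKM, where S1pr2 (6.50 FPKM) and S1pr3 (1.45 FPKM) were low. It was lowest in arrested library 1, where S1pr3 was also lowest (1.20 FPKM), whereas S1pr2 was lowest in arrested library 3. In arrested library 2, where S1pr2 was highest, the sum was 2163 FPKM. Arrested library 2, the highest for S1pr1 and S1pr2, was also the one with adipocyte markers at 1301 FPKM. None of the endothelial, smooth muscle or adipocyte genes was at 0 in all libraries. The part of these cells in the receptor values was not tested. Lymphatic markers summed to 3.50 to 23.1 FPKM in arrested, 10.8 to 14.2 FPKM in competent and 8.21 to 11.97 FPKM in control uteri.

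**Figure D5:**
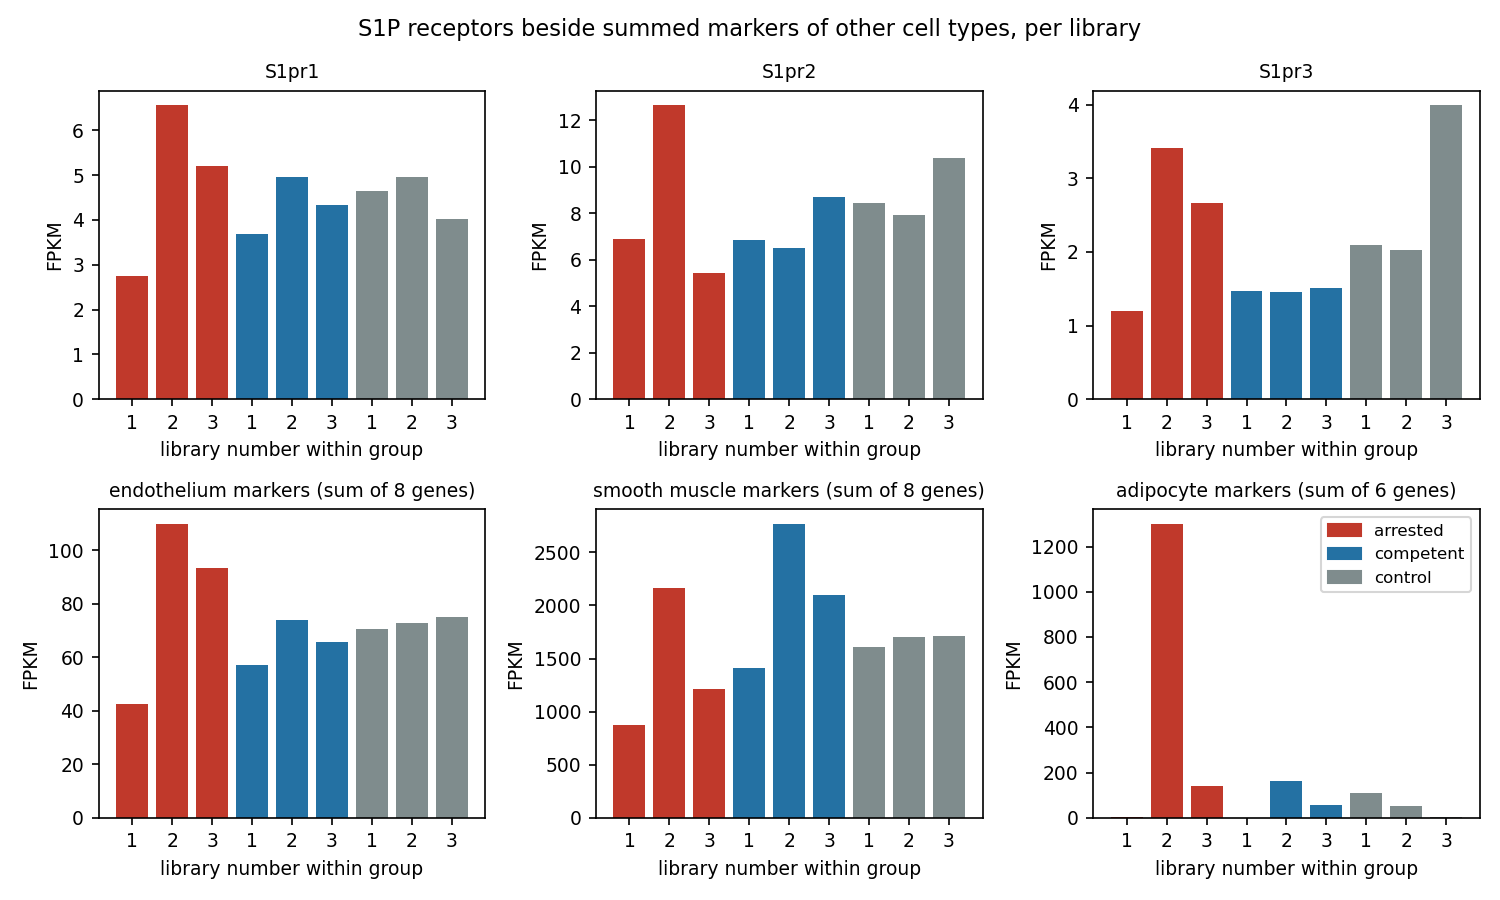
FPKM of S1pr1, S1pr2 and S1pr3 (upper row) and summed FPKM of endothelial, smooth muscle and adipocyte marker genes (lower row) in each library, coloured by group from left to right as arrested, competent and control. Arrested library 2 is the highest for S1pr1, S1pr2, the endothelial sum (110 FPKM) and the adipocyte sum (1301 FPKM), and arrested library 1 is the lowest for S1pr1 and the endothelial sum (42.6 FPKM).

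The sums of the remaining cell type markers overlapped between groups, with 1 exception. Epithelial markers, of the cells that line the uterus, summed to 1858 to 2712 FPKM in arrested, 2243 to 2599 FPKM in competent and 2028 to 2584 FPKM in control uteri. A sum follows its most abundant genes and can hide single markers. In arrested minus competent, 2 epithelial markers had higher and 5 lower estimates. Cdh1 was at 104 to 123 FPKM in arrested, 152 to 176 FPKM in competent and 133 to 151 FPKM in control uteri. Its 3 groups were apart in the order of Smpd1, as were those of 0.39% of all genes. Arrested minus competent was -0.54 for Cdh1 (limma, adjusted p = 0.233). Stromal markers summed to 1479 to 2675 FPKM in arrested, 1317 to 1877 FPKM in competent and 1727 to 2061 FPKM in control uteri. In competent minus control, 2 stromal markers had higher and 4 lower estimates. Dcn was at 792 to 1281 FPKM in arrested, 523 to 687 FPKM in competent and 838 to 943 FPKM in control uteri. Its competent libraries were below all others, and 8.13% of all genes had competent wholly below control. Competent minus control was -0.54 for Dcn (limma, adjusted p = 0.880). Macrophage markers summed to 201 to 342 FPKM in arrested, 220 to 279 FPKM in competent and 228 to 466 FPKM in control uteri. Lymphocyte markers were at 8.88 to 20.1, 10.1 to 16.8 and 9.56 to 13.5 FPKM, and neutrophil markers at 2.65 to 8.03, 4.43 to 27.8 and 3.53 to 35.4 FPKM, in arrested, competent and control uteri in that order. Red cell markers were the exception, at 2091 to 4842 FPKM in arrested uteri against 937 to 1500 FPKM in control uteri, and 747 to 3967 FPKM in competent uteri. By limma, 0 of the 59 marker genes tested passed the threshold in any contrast, while an unadjusted p under 0.05 was reached by 6 in arrested minus competent, 2 in competent minus control and 6 in arrested minus control, against 10.9%, 5.18% and 5.27% of all genes.

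Counted over the 8 members tested, 1 (Smpd1) passed the threshold in arrested minus competent, where 0.135% of all genes did. Nothing is read from that count, since the difference of Smpd1 was known when the list was made, and with each library left out in turn Smpd1 passed in 1 of 9 fits. In competent minus control and in arrested minus control, 0 of 8 members passed by limma, and 1 in each had an unadjusted p under 0.05, as did 5.18% and 5.27% of all genes. That member was Smpd1, whose values entered the choice, so nothing is read from this count either. The median difference of the members was 0.086 in arrested minus competent, -0.087 in competent minus control and -0.14 in arrested minus control, against -0.0071, -0.0087 and -0.019 over all genes tested. Groups did not overlap for 2 members in arrested minus competent (Smpd1 and Sgpp1), 2 in competent minus control (Smpd1 and S1pr3) and 1 in arrested minus control (Smpd1), against 16.5%, 14.9% and 8.85% of all genes.

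Genes around the members in the pathway were counted in 5 lists of sphingolipid genes, which include the receptors S1pr4 and S1pr5. Of their 56 genes, 44 were tested and 0 passed the threshold by limma in any contrast. Their median difference was 0.0025 in arrested minus competent, 0.035 in competent minus control and 0.017 in arrested minus control. An unadjusted p under 0.05 was reached by 5, 2 and 5 of the 44, against 10.9%, 5.18% and 5.27% of all genes.

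In de novo ceramide synthesis, which makes ceramide from serine and palmitate and not from sphingomyelin, 10 of 14 genes tested had higher and 4 lower estimates in arrested minus competent, with a median of 0.21. An unadjusted p under 0.05 was reached by 3 of the 14, against 10.9% of all genes. These 3 were ceramide synthases, while other synthases tested in the list did not reach it. Lass2 (now Cers2), which makes very long chain ceramides, was at 41.1, 37.2 and 50.5 FPKM in arrested uteri, 34.3, 32.2 and 32.3 FPKM in competent uteri and 39.96, 39.9 and 47.6 FPKM in control uteri. Its competent libraries were below all others, and competent minus control was -0.35 (limma, adjusted p = 0.944). Lass3 (Cers3), the synthase of ultra long chains, was at 7.77, 5.004 and 4.44 FPKM in arrested uteri, 3.18, 3.27 and 2.34 FPKM in competent uteri and 3.85, 3.12 and 2.998 FPKM in control uteri. Lass5 (Cers5), which makes palmitoyl ceramide, averaged 25.3, 20.6 and 22.3 FPKM in arrested, competent and control uteri. For Lass3 and Lass5 every arrested library was above every other library. Neither passed the threshold in arrested minus competent (limma, adjusted p = 0.377 and 0.452). Over all genes, groups did not overlap for 16.5% in arrested minus competent, 14.9% in competent minus control and 8.85% in arrested minus control. These synthases were named for their small unadjusted p, so nothing is read from their separations.

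Among genes that make or break sphingomyelin, 7 of 11 were tested, with a median of -0.086 in arrested minus competent. Smpd4, a neutral sphingomyelinase, averaged 6.30 ± 1.17, 6.88 ± 2.18 and 9.35 ± 0.458 FPKM in arrested, competent and control uteri (SD, n = 3 each), with arrested minus control at -0.51 (limma, adjusted p = 0.904). Smpdl3b, which encodes an acid sphingomyelinase-like protein, was at 4.62, 6.37 and 17.3 FPKM in arrested uteri, 3.58, 5.48 and 6.01 FPKM in competent uteri and 3.52, 1.54 and 3.54 FPKM in control uteri. All libraries given conditioned medium were above all controls, competent library 1 by little (3.58 against 3.54 FPKM in control library 3). Arrested library 3 was far above the rest. Over all genes, groups did not overlap for 8.85% in arrested minus control and 14.9% in competent minus control. The arrested minus control difference of Smpdl3b was 1.29 ± 0.46 (limma, adjusted p = 0.904), and it alone in its list had an unadjusted p under 0.05. Smpd3, the neutral enzyme of the Golgi, was listed at 0 in 6 libraries. Sgms1, which makes sphingomyelin in the Golgi, was at 11.2, 17.6 and 18.45 FPKM in arrested uteri, 21.8, 18.49 and 19.6 FPKM in competent uteri and 16.1, 15.8 and 13.8 FPKM in control uteri, so its competent libraries were above all others (competent minus control 0.37, limma adjusted p = 0.954). In arrested minus competent, groups did not overlap for 16.5% of all genes.

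Of the glycosphingolipid genes and ceramide kinase, 14 of 16 were tested. Gm2a, the activator protein for ganglioside breakdown in the lysosome, had the smallest unadjusted p among the 44 genes tested in these 5 lists. It was at 92.7, 82.7 and 93.3 FPKM in arrested uteri, 62.4, 61.7 and 58.3 FPKM in competent uteri and 72.4, 70.2 and 68.1 FPKM in control uteri. Its 3 groups were apart in the order opposite to that of Smpd1, and arrested minus competent was 0.55 ± 0.10 (limma, adjusted p = 0.148). Over all genes, 0.39% had their groups apart in the order of Smpd1, and the share for the opposite order was not counted. Gm2a was named for its small p, so nothing is read from its separation. Psap, whose product yields the saposins, activators of lysosomal sphingolipid hydrolases, averaged 342 ± 29.3, 412 ± 7.97 and 370 ± 86.6 FPKM in arrested, competent and control uteri, with arrested wholly below competent and controls that spanned both. Over all genes, 8.75% had arrested wholly below competent. Gla, the lysosomal alpha-galactosidase, was at 3.64, 3.49 and 4.40 FPKM in arrested uteri, 3.52, 4.56 and 12.5 FPKM in competent uteri and 3.92, 0 and 0.788 FPKM in control uteri, with competent minus control at 1.76 (limma, adjusted p = 0.880).

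Of the remaining ceramidases, 3 of 4 were tested, and Acer3, the alkaline ceramidase with the highest level, averaged 63.4, 65.7 and 76.8 FPKM in arrested, competent and control uteri. Of 10 other genes of S1P handling and S1P receptors, 6 were tested, and the receptors S1pr4 and S1pr5 were not. Spns2, the S1P exporter of endothelial cells, was at 23.3, 17.9 and 40.5 FPKM in arrested uteri, 21.0, 21.5 and 21.96 FPKM in competent uteri and 16.1, 17.7 and 16.1 FPKM in control uteri. All libraries given conditioned medium were above all controls, arrested library 2 by little (17.9 against 17.7 FPKM in control library 2). Over all genes, groups did not overlap for 8.85% in arrested minus control and 14.9% in competent minus control. For Spns2, arrested minus control was 0.60 and competent minus control 0.35 (limma, adjusted p = 0.904 and 0.954). Ppap2a, a lipid phosphate phosphatase, was listed at 0 in arrested libraries 1 and 2 and at 11.8 to 21.8 FPKM in the other 7.

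Smpd1 and Asah1 act in the lysosome, and 14 of 15 listed lysosomal genes were measured and tested. In arrested minus competent 11 of the 14 had higher and 3 lower estimates, with a median of 0.27 against -0.0071 for all genes, and 0 passed the threshold while 5 of 14 had an unadjusted p under 0.05, against 10.9% of all genes. Ctsd, the protease cathepsin D, was at 502, 366 and 606 FPKM in arrested uteri, 346, 345 and 307 FPKM in competent uteri and 341, 328 and 377 FPKM in control uteri. Gusb, the glucuronidase, went the way of Smpd1 and was at 32.0, 28.9 and 34.2 FPKM in arrested uteri, 43.4, 50.8 and 41.9 FPKM in competent uteri and 40.8, 41.4 and 35.8 FPKM in control uteri. Its arrested minus competent difference was -0.50 (limma, adjusted p = 0.276). Summed, lysosomal expression was 1722 to 2555 FPKM in arrested, 1787 to 1807 FPKM in competent and 1558 to 1925 FPKM in control uteri, and the part of lysosomal content in the Smpd1 values was not tested.

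All 7 genes for the G protein alpha subunits that S1P receptors use were tested, and 0 passed the threshold or had an unadjusted p under 0.05 in any contrast. Their median differences were -0.15 in arrested minus competent, -0.014 in competent minus control and -0.21 in arrested minus control. Gnai2, the leading inhibitory subunit, averaged 108, 138 and 123 FPKM in arrested, competent and control uteri.

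The genes most like each member over the 9 libraries were ranked by Pearson r of log2(FPKM + 1), which is given as a description. Among those nearest to Smpd1 were Efhd2 (0.97) and Golm1 (0.96). Golm1, a Golgi membrane protein gene, was at 30.6, 32.3 and 25.2 FPKM in arrested uteri, 72.1, 89.4 and 94.6 FPKM in competent uteri and 43.0, 42.7 and 75.9 FPKM in control uteri, which is low in arrested and high in competent uteri like Smpd1. Sgpp1 was nearest to Rab27a (0.96), Kcne4 (0.96) and Refbp2 (0.95).

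S1pr1 was nearest to Aqp1 (0.94), the water channel of endothelium, Fabp4 (0.94), of adipocytes and capillaries, and Twist1 (0.93). Fabp4 was at 0.613, 598 and 64.2 FPKM in arrested uteri, 0.837 to 82.4 FPKM in competent uteri and 2.41 to 44.9 FPKM in control uteri, and it is itself among the adipocyte markers. S1pr2 was nearest to Cry2 (0.97), Naalad2 (0.96) and Cd34 (0.96), and S1pr3 to Dtx3 (0.98), P2rx7 (0.97) and Rftn2 (0.97). Sgpl1 was nearest to Pcyox1 (0.94), Hyal2 (0.94) and Tpp1 (0.94), of which Tpp1 encodes a lysosomal peptidase. Asah1 was nearest to Nudcd1 (0.99), Il17rc (0.99) and Tmod3 (0.98), and of these Nudcd1 and Il17rc were listed at 0 in arrested library 3, where Asah1 was lowest. Sphk1 was nearest to Mif (0.94), Gpr56 (0.91) and Apol9a (0.90).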

How the data were processed

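The submitters sequenced whole-uterus RNA from TruSeq libraries. Their processing notes name Bowtie 0.12.2, the mouse build mm9 and Cufflinks (version and options not given in the sources used here). FPKM per transcript, with interval ends on the same scale, were deposited by the authors. A coverage signal per transcript was also deposited, as bases of depth without scaling to library size, and the depth in reads is unknown. Of 92839 annotated transcripts per library, 1354 to 1356 were absent from GENCODE vM1 (NCBIM37) and left out. Gene sums were made with Python 3.11.15 and pandas 2.3.3. Differences in log2(FPKM + 1) were tested with limma 3.58.1 (R 4.3.3) and a mean trend, in 1 fit of the 3 groups, for 13333 genes averaging at least 1 FPKM, with Benjamini-Hochberg adjustment over all of them and a threshold of 0.05. That scale understates the change of low genes. On simulated data for competent minus control (13333 genes, 200 changed), recovery was 41.0% for changes of 1 and 78.7% for changes of 2 (log2). False calls averaged 11. Changes were put only into genes whose log2(FPKM + 1) averaged more than 3. The levels of S1pr1 and S1pr3 were below that, so these rates do not cover them or other low genes. There were 25 alternatives.

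The members, the 18 gene lists and the tests were chosen with earlier results of these data known. Named genes are the members, genes taken from the 4 or fewer tested genes per list with the smallest unadjusted p in any contrast, and the 3 coding genes most like each member, of which 1 is not reported here. S1pr4, S1pr5, Rpl18, Dbp, Apbb1 and Esr1 were named after their values were seen. Replicate numbers did not pair the libraries.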

Additional observations from a re-analysis of the deposited data

How the results depend on the processing

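Over 25 alternatives per result, 0 members passed the threshold in competent minus control and in arrested minus control, as reported, and every difference of Smpd1 and Sgpp1 kept its sign. The 3 groups of Smpd1 do not overlap, and it has 1 transcript. Neither leaving out libraries nor counting transcripts otherwise could turn its signs, so nothing is read from them. Arrested and competent libraries of Sgpp1 do not overlap either, so leaving out libraries could not turn that difference. The count of 1 member in arrested minus competent was 0 with protein-coding transcripts only, with the transcript of highest mean, with no filter on low values, with only the 2 groups compared, without a mean trend and with the replicate block, and it ran from 0 to 1 when single libraries were left out; Smpd1 stayed at -1.28 to -1.08 there but passed in 1 of 9. With the replicate block, 4 genes in all passed in arrested minus competent, 1 in competent minus control; same-numbered libraries correlated at -0.052 to 0.096 in their deviations, so the numbers were not taken to pair them. Leaving out arrested libraries 2 and 3 leaves 1 arrested library, assumed to vary like the others. Arrested minus competent was then 0.60 for Gm2a, -4.16 for Ppap2a and -2.66 for Col1a1, and arrested minus control -3.93 for Ppap2a. With single libraries left out, the sphingolipid counts were 0 to 1 in both contrasts, with Ppap2a passing without arrested library 3. Ppap2a was listed at 0 in arrested libraries 1 and 2, so every arrested library left in these fits was at 0. Since a listed 0 can be a failed estimate, nothing is read from its passing.

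Genes passing over the whole table in arrested minus competent numbered 18 as reported, 8 with coding transcripts only, 11 with the top transcript, 33 with 2 groups, 10 without trend, 291 without arrested libraries 2 and 3, and 12 to 43 with single libraries left out. In competent minus control they numbered 6, with 2 on exon-union coverage, 10 with no filter, 12 with 2 groups, 12 without arrested libraries 2 and 3, and 4 to 17 with single libraries left out. In arrested minus control they numbered 7, with 3 on coding and on top transcripts, 108 without arrested libraries 2 and 3, and 7 to 25 with single libraries left out.

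Signs that turned all belonged to members past no threshold, and the cause was not tested. Competent minus control of Asah1 was 0.27 on the top transcript and 0.10 on exon-union coverage, and that of Sphk1 was -0.051 on exon-union coverage. Arrested minus control of S1pr1 was -0.0078 on exon-union coverage. Without arrested libraries 2 and 3, arrested minus control was 0.23 for Asah1, -0.070 for Sgpl1 and -0.56 for S1pr1. With single libraries left out, arrested minus control ran from -0.60 to 0.12 for Asah1, -0.070 to 0.081 for Sgpl1, -0.20 to 0.31 for S1pr1, -0.47 to 0.073 for S1pr2 and -0.34 to 0.16 for S1pr3, and competent minus control from -0.10 to 1.43 for Sphk1 and -0.15 to 0.028 for S1pr1. The arrested minus competent differences of Asah1, Sphk1, S1pr1, S1pr2 and S1pr3, given as descriptions, also turned sign when certain libraries were left out. With 3 libraries a group and unknown read depth, the only measure of counting precision is the authors' intervals.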
